A study of Mus musculus with 2 samples.

Results

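The interferon-inducible GTPases are 10 genes of the 17260 in the deposited count table: the guanylate-binding protein genes Gbp2, Gbp2b, Gbp3 and Gbp7, the immunity-related GTPase genes Irgm1, Irgm2, Igtp, Iigp1 and Tgtp1, and Gvin1, which encodes a very large inducible GTPase. The Entrez gene numbers of the table place the GBPs on chromosome 3, Irgm1, Irgm2, Igtp and Tgtp1 on chromosome 11, Iigp1 on chromosome 18 and Gvin1 on chromosome 7. They were chosen by gene symbol, with the counts and TPM of both libraries already known, so their ratios are given as a description. The data are 2 RNA libraries of mouse embryonic fibroblasts (MEFs), connective tissue cells cultured from embryos of day 13.5 in DMEM medium with 10% serum. One came from wild-type (WT) C57BL/6 embryos and the other from embryos of the same strain labelled Ahi1-/-, that is, without working copies of Ahi1, which encodes a protein at the base of the primary cilium. No treatment with interferon is given in the labels, and neither is the number of embryos behind each culture. There was 1 library per genotype and no replicate. The ratios therefore compare 2 libraries and not 2 genotypes, no test was possible, and intervals are 95% and cover counting error only.

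Interferons are secreted proteins that cells release on infection, and they switch on these genes through JAK kinases and STAT and IRF transcription factors. Guanylate-binding proteins (GBPs) assemble on pathogen membranes and on vacuoles that hold bacteria or parasites, and help to open them. Immunity-related GTPases (IRGs) act on the same vacuoles in mouse cells, fibroblasts included. IRGs fall into effectors, which load onto the vacuole, and regulators, which sit on the membranes of the cell itself and keep the effectors inactive there. The regulators carry methionine in place of a conserved lysine in the first nucleotide-binding motif (G1), so the motif ends in GMS and not in GKS.

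This difference stands in the coding sequences of the GENCODE M21 annotation, and it sets the order of the results. The 24 coding bases of the G1 motif are shown for 9 of the genes, with the codon for the lysine or methionine in capitals.
Irgm1: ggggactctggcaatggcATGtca
Irgm2: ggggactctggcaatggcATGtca
Igtp: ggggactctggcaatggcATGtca
Tgtp1: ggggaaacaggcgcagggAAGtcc
Gbp2: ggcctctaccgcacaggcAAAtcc
Gbp2b: ggcttctaccacacaggcAAAtcc
Gbp3: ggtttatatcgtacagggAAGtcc
Gbp7: ggactataccgtacgggaAAAtcc
Gvin1: ggcctgcagagctcagggAAGtct
The 3 regulators Irgm1, Irgm2 and Igtp had the same 24 bases, with the methionine codon. Tgtp1, the GBPs and Gvin1 had a lysine codon, and so did Iigp1, whose bases are not shown. The coding sequences were 407 to 423 residues long for the IRGs, 589 to 638 for the GBPs and 2427 for Gvin1. Gbp2, Gbp2b and Iigp1 had a cysteine codon followed by 3 others at the end, and the other 7 genes did not. In Gbp2 and Gbp2b this is the CaaX box, to which a prenyl anchor is attached. Their last 4 codons are shown with that of the cysteine in capitals.
Gbp2, end: TGCactatactc
Gbp2b, end: TGCaccatactt

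Upstream of their start sites, 8 of the 10 genes had one feature in common. The promoters of these 8 were found in the RefSeq table (build GRCm38.p6), from 250 bases before to 50 bases after the start. Those of Iigp1 and Gvin1 were not analysed here. The interferon-stimulated response element (ISRE), searched as GAAANNGAAA on both strands, was present in all 8 genes, although only in 1 of the 2 promoters of Gbp3. Of all promoters in the table, 32851 in number, 3.44% held it, and of all 27025 genes 3.99%. The windows below run from 12 bases before to 12 bases after the matches, on the strand of the gene, with the ISRE letters in capitals. Where the motif lies on the opposite strand, as in the GBPs, the letters show as their reverse complement.
Irgm1, chr11:48871423-48871462, minus strand: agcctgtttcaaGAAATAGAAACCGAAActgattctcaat
Irgm2, chr11:58214901-58214934, plus strand: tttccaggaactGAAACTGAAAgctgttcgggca
Igtp, chr11:58199510-58199543, plus strand: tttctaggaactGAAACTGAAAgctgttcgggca
Tgtp1, chr11:48992302-48992335, minus strand: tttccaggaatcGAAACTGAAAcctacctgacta
Gbp2, chr3:142620592-142620625, plus strand: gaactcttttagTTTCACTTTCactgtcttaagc
Gbp2b, chr3:142594698-142594731, plus strand: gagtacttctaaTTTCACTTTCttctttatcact
Gbp3, chr3:142559987-142560026, plus strand: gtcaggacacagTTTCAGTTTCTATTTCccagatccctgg
Gbp7, chr3:142530271-142530304, plus strand: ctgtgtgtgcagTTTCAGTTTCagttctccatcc
In Irgm1 and Gbp3, 2 overlapping matches stood side by side. The gamma-activated site (GAS), a response element of interferon-gamma, was searched as TTCNNNGAA, a motif that reads the same on both strands. It was present in 4 of the 8 genes, in 9.55% of all genes and in 8.30% of all promoters. Of 9 other genes of the families with a promoter in the table, 6 held an ISRE and 4 a GAS. In Irgm2, Igtp and Tgtp1 it ended 2 bases before the ISRE and lies at the left of the windows above, while Gbp7 had 2 GAS matches further upstream. Both motifs together were present in 0.454% of all promoters. A match describes these letters and is not a measured binding site.

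**Figure D1:**
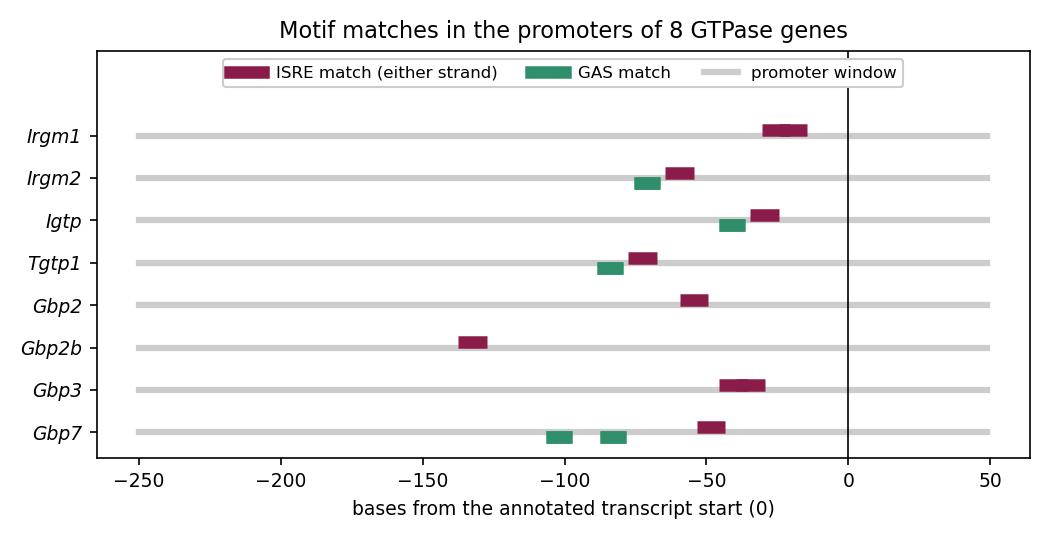
Positions of ISRE and GAS matches in the promoters of 8 GTPase genes, in bases from the annotated transcript start (vertical line at 0); grey bars are the window of 250 bases before to 50 bases after it. Every ISRE match lies upstream of the start, and in Gbp2b it begins at base -137 against -59 in Gbp2.

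The WT library held 19067504 expected counts and the library labelled Ahi1-/- 20820756. After scaling, the floor of 3 counts that stands for a count of 0 was 0.151 and 0.150 CPM (scaled counts as a share of the library). Ahi1 itself had 410 and 370 counts (log2 ratio -0.16, interval -0.37 to 0.05), so the counts summed over this gene did not separate the libraries, and each direction rests on the column heads. All 10 fibroblast markers were above 50 counts in each library. They summed to 8075 TPM in WT and 21546 TPM in the library labelled Ahi1-/-, with 8 past 2-fold. Of 5 epithelial markers 4 were 2-fold or more higher there (67.2 and 100.2 TPM summed). Of 6 measured red cell markers 6 were lower by at least that much (1707 and 22.4 TPM). Over all 12075 genes with 50 or more counts in the higher library, 16.0% were higher and 10.3% lower by this limit. Leukocyte markers summed to 28.0 TPM in WT and 50.3 TPM in the other library, and only 3 of the 10 reached 50 counts. Lyz2 alone made up 10.2 TPM of the sum in WT and 34.2 TPM in the other library. Lyz2 (96 and 315 counts), Adgre1 (4 and 39) and Itgam (12 and 39) lay past 2-fold on the higher side. Cd68 had 50 and 56. Ptprc (23 and 10) lay past 2-fold on the lower side (log2 -1.21, -2.45 to -0.09). Csf1r (109 and 76) and Tyrobp (18 and 13) had log2 ratios below 0. So did Fcer1g (24 and 15), C1qa (8 and 5) and C1qb (7 and 4). Of the 10 leukocyte markers 4 had log2 ratios above 0 and 6 below, and none was at 0. Endothelial markers summed to 1.91 and 1.47 TPM, and 0 of the 7 reached 50 counts. The 4 with 10 or more counts in the libraries together were Tie1 (20 and 0), Cdh5 (9 and 1), Kdr (20 and 20) and Tek (8 and 9). The part of these cell types in the values below was not tested, and in such bulk RNA fewer cells of a type and less RNA per cell cannot be told apart.

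Both libraries held transcripts of these GTPases at similar summed levels, but not from the same genes. The 10 genes summed to 387 TPM (the authors' level per transcript length) in WT and 384 TPM in the library labelled Ahi1-/-. Without Gbp2b and Gvin1, which were at 0 in WT, the sums were 387 and 326 TPM. A gene was called higher or lower where the scaled counts lay 2-fold or more apart and the larger count was 50 or more. All 10 genes reached that minimum, and 4 were higher (Gbp2b, Gvin1, Tgtp1 and Iigp1) and 1 lower (Gbp7). Gbp2b, Gvin1 and Tgtp1 passed the minimum only through the library where they were high. Of all 12075 genes with that minimum, 16.0% were higher and 10.3% lower. Since the genes were chosen with these ratios known, nothing is read from the comparison. Their median log2 ratio was -0.07 (5 above and 5 below 0), and that of all 14485 measured genes (10 or more counts in the libraries together) was -0.01. The log2 ratios of the 10 ran from -1.04 (Gbp7) to 9.43 (Gvin1, against the floor of 3 counts). The quartiles of all measured genes were -0.52 and 0.67.

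**Figure D2:**
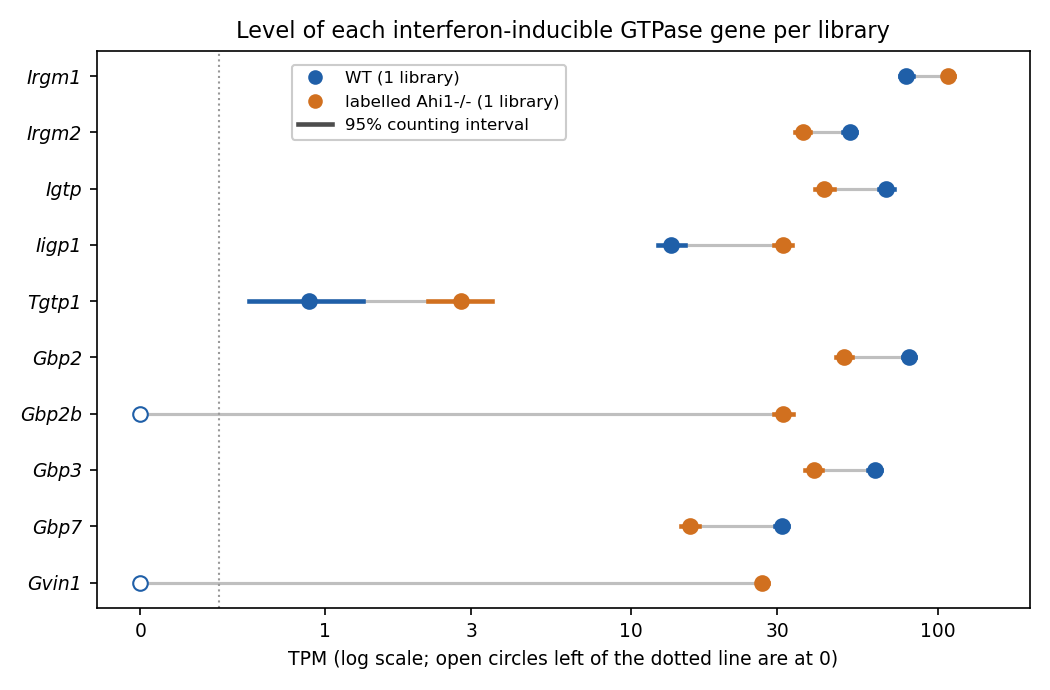
Level of each gene in TPM on a log axis in WT (blue) and in the library labelled Ahi1-/- (orange), with 95% counting intervals; open circles at the left are values of 0. Irgm1, Iigp1, Tgtp1, Gbp2b and Gvin1 lie to the right in the library labelled Ahi1-/-, and the other 5 genes to the left.

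Of the regulators, Irgm1 differed in direction from Irgm2 and Igtp. Irgm1 (gene 15944), which guards the Golgi and lysosomes, had 1605 counts (79.2 TPM) in WT and 2168 (108.5 TPM) in the library labelled Ahi1-/-, a 1.34-fold higher level (log2 0.42, interval 0.33 to 0.51). Irgm2 (gene 54396), a Golgi regulator, had 1679 counts (51.7 TPM) in WT and 1150 (36.3 TPM) in the other library, 1.47-fold lower (log2 -0.56, -0.67 to -0.45). Igtp (gene 16145), also known as Irgm3 and located on the endoplasmic reticulum, had 1258 counts (68.0 TPM) and 770 (42.7 TPM), 1.65-fold lower (log2 -0.72, -0.85 to -0.59). None of the 3 was 2-fold apart, and the counting interval of each lay clear of 0 on its own side. Irgm1 stood highest of the 10 genes in the library labelled Ahi1-/- and next to the top in WT, where its interval overlapped that of Gbp2. Its TPM was above that of 87.1% of all genes in WT and 90.8% in the other library.

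Both effector IRGs among the 10 genes were higher in the library labelled Ahi1-/-, from lower levels. Gm12250, an effector outside the 10 that is described below, went the other way (41 and 14 counts). Iigp1 (gene 60440), a well studied effector also called Irga6, had 389 counts (13.5 TPM) in WT and 878 (31.4 TPM) in the library labelled Ahi1-/-, 2.24-fold higher (log2 1.16, 0.99 to 1.34). Tgtp1 (Irgb6, gene 21822), which is among the first to load onto a parasite's vacuole, had 23 counts (0.89 TPM) and 70 (2.79 TPM), 3.02-fold higher (1.86 to 5.06). Tgtp1 was the least abundant of the 10 genes in the library labelled Ahi1-/- and the lowest above 0 in WT. Its copy Tgtp2 shares most of its sequence, and 89.4% of the 50-base stretches of the longest Tgtp1 transcript also occur in Tgtp2. The split between the copies is therefore uncertain. Tgtp2 had 52 and 141 counts, and both copies summed to 75 and 211 counts, 2.79-fold higher (2.13 to 3.68). The summed value was close to that of Tgtp1 alone.

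Of the GBPs, Gbp2, Gbp3 and Gbp7 had lower values in the library labelled Ahi1-/-, whereas Gbp2b was detected there alone. Gbp2 (gene 14469), a prenylated GBP that coats parasite vacuoles, had 1816 counts (80.6 TPM) in WT and 1091 (49.6 TPM) in the library labelled Ahi1-/-, 1.68-fold lower (1.56 to 1.81). Gbp3 (gene 55932) had 1557 counts (62.4 TPM) and 955 (39.4 TPM), 1.64-fold lower (1.52 to 1.78). Gbp7 (gene 229900) had 1614 counts (31.0 TPM) and 791 (15.6 TPM), 2.06-fold lower (1.89 to 2.24). Gbp7 is at the edge of the 2-fold limit, and with upper-quartile scaling or the authors' TPM it was no longer past it, which left 0 lower genes. The 3 values lay within a narrow range, from log2 -0.72 to -1.04.

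Gbp2b (gene 14468), also known as Gbp1, was at 0 in WT, while the library labelled Ahi1-/- held 795 counts (31.4 TPM). Against the floor of 3 counts this is 263-fold higher, while the lower limit of the counting interval is 213-fold. In the library labelled Ahi1-/-, Gbp2b stood at 63.2% of the TPM of Gbp2 beside it. Little sequence is shared between them: 1.84% of the 50-base stretches of Gbp2b occur in Gbp2, and none of the others in another annotated gene. Both promoters hold an ISRE, and they are shown in full (in capitals the ISRE letters) because these neighbouring genes, with coding sequences of the same length and the same CaaX form, had opposite ratios.
Gbp2, chr3:142620413-142620712, plus strand: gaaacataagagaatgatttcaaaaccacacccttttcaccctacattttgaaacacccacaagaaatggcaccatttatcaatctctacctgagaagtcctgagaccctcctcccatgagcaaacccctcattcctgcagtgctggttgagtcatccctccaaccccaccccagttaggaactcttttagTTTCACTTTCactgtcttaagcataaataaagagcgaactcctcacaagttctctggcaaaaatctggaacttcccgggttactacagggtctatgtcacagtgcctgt
Gbp2b, chr3:142594597-142594896, plus strand: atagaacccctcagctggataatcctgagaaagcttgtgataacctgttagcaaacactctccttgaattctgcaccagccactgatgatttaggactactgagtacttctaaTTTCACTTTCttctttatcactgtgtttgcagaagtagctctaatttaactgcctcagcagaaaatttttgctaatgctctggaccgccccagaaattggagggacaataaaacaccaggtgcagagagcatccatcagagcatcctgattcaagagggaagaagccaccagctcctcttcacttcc
The ISRE core had the same letters in both. Neither promoter held a GAS match in this window.

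Gvin1 (gene 74558) was, like Gbp2b, at 0 in WT, while the library labelled Ahi1-/- held 2085 counts (26.8 TPM). This value cannot be separated from that of its nearest copy. Of the 50-base stretches of its longest transcript, 98.3% also occur in Gm4070, a neighbouring gene annotated on the same chromosome 7, so reads of one could be assigned to the other. Gm4070 had 172 counts (2.16 TPM) in WT and 856 (10.9 TPM) in the library labelled Ahi1-/-, 4.93-fold higher (4.18 to 5.84). Summed over both copies there were 172 counts in WT against 2941, a 16.9-fold higher value (14.5 to 19.9). The summed ratio lies far below that of Gvin1 alone, which was 689-fold against the floor of 3 counts (lower limit 560-fold). Gm1966, another gene of the cluster, had 2 and 17 counts (log2 3.07, 1.00 to 6.23).

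Counted per length, the order of the 10 genes was partly kept. In WT it ran Gbp2, Irgm1, Igtp, Gbp3, Irgm2, Gbp7, Iigp1 and Tgtp1, with Gbp2b and Gvin1 at 0. The intervals of Gbp2 and Irgm1 overlapped there, and so did those of Igtp and Gbp3. In the library labelled Ahi1-/- it ran Irgm1, Gbp2, Igtp, Gbp3, Irgm2, Gbp2b, Iigp1, Gvin1, Gbp7 and Tgtp1. Igtp overlapped with Gbp3, Gbp3 with Irgm2, and Gbp2b with Iigp1 at 31.4 TPM each. Igtp, Gbp3 and Irgm2 thus stood in the same sequence in both libraries, and Gbp7 stood below Gbp2b, Iigp1 and Gvin1 in the second only.

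**Figure D3:**
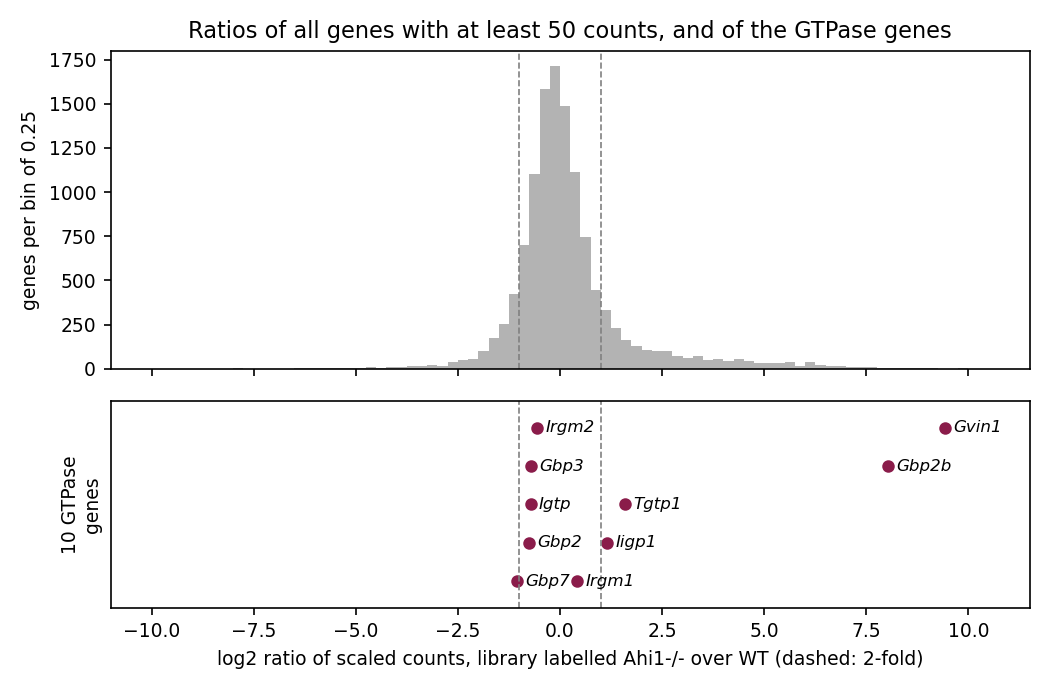
Log2 ratio of scaled counts (library labelled Ahi1-/- over WT) of all 12075 genes with at least 50 counts, as a histogram with bins of 0.25, above the 10 GTPase genes plotted on the same axis; dashed lines mark 2-fold. Gbp2b and Gvin1, plotted at their bounds of 8.04 and 9.43, stand apart from the other 8 genes, which lie between -1.04 and 1.59.

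The rest of the families was taken from a list of 33 names, of which 18 were analysed, all of them measured. The others, Mx1 and Mx2 among them, were not analysed here. Of the 12 with 50 counts in the higher library, 8 were higher and 0 lower in the library labelled Ahi1-/-, against 16.0% and 10.3% of all genes. Of these 8, 5 (Gbp4, Gbp9, Gbp10, Gm4951 and Gm4841) passed the minimum only through the library where they were high, so the count is a description. Of all 18, 15 had log2 ratios above 0, against 49.3% of all 14485 measured genes. Some, such as Tgtp2 and Gm4070, share most of their sequence with one of the 10, so the ratios are not independent. With no replicates these are counts of ratios, with no test behind them. The median log2 ratio of the 18 was 1.32. Several of these genes had few counts in WT. In both libraries their levels were low, with summed TPM of 50.5 in WT and 96.6 in the other library against 387 and 384 for the 10.

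On chromosome 5, 4 GBP genes had few or no counts in WT and more in the other library. Gbp9 had 10.5 expected counts in WT against 514 (50.9-fold higher, 27.5 to 107). Gbp4 had 1 and 61 counts (log2 5.92, 3.39 to 11.24) and Gbp8 1 and 14 (log2 3.79, 1.08 to 9.20), ratios that counting error leaves wide. Gbp10 had 0 and 145 counts, 47.9-fold higher against the floor of 3 counts (lower limit of the counting interval 38.5-fold). Gbp6, in the same cluster, went the other way with 645 and 353 counts (1.84-fold lower, 1.62 to 2.11). Of the 50-base stretches of Gbp10, 70.6% occur in Gbp6, and the sum of both was 645 and 498 counts, 1.31-fold lower. Gm43302, which was on none of the lists, holds 79.2% of the stretches of Gbp10 and 51.5% of those of Gbp6. The sum therefore does not settle how reads were assigned. Gbp5, on chromosome 3, had 122 and 96 counts, with an interval that included no difference (log2 -0.36, -0.76 to 0.04).

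The other IRGs are given by cluster. On chromosome 18, beside Iigp1, Gm4951 was 7.43-fold higher (22 and 165 counts), Gm4841 2.33-fold (23 and 54) and F830016B08Rik 2.02-fold (115 and 234). With total-count scaling F830016B08Rik was under 2-fold, which left 7 higher of the 18. On chromosome 11 beside Tgtp1, Ifi47 (Irgd) had 90 and 127 counts (1.40-fold higher, 1.06 to 1.85). Gm12185 had 13 and 17 counts, its neighbour Gm5431, which was on none of the lists, 15 and 20, and 9930111J21Rik2 had 7 and 12. 9930111J21Rik1 had 0 and 28 counts, 9.25-fold higher against the floor of 3 counts (lower limit 7.04-fold). It shares 76.2% of its stretches with 9930111J21Rik2. Gm12250 (Irgb10), an effector next to Igtp and Irgm2, had 41 and 14 counts, with a log2 ratio of -1.56 (-2.55 to -0.66), below the minimum of 50. Irgq, a distant relative of the IRGs on chromosome 7, had 776 and 1476 counts (1.89-fold higher, 1.73 to 2.06).

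**Figure D4:**
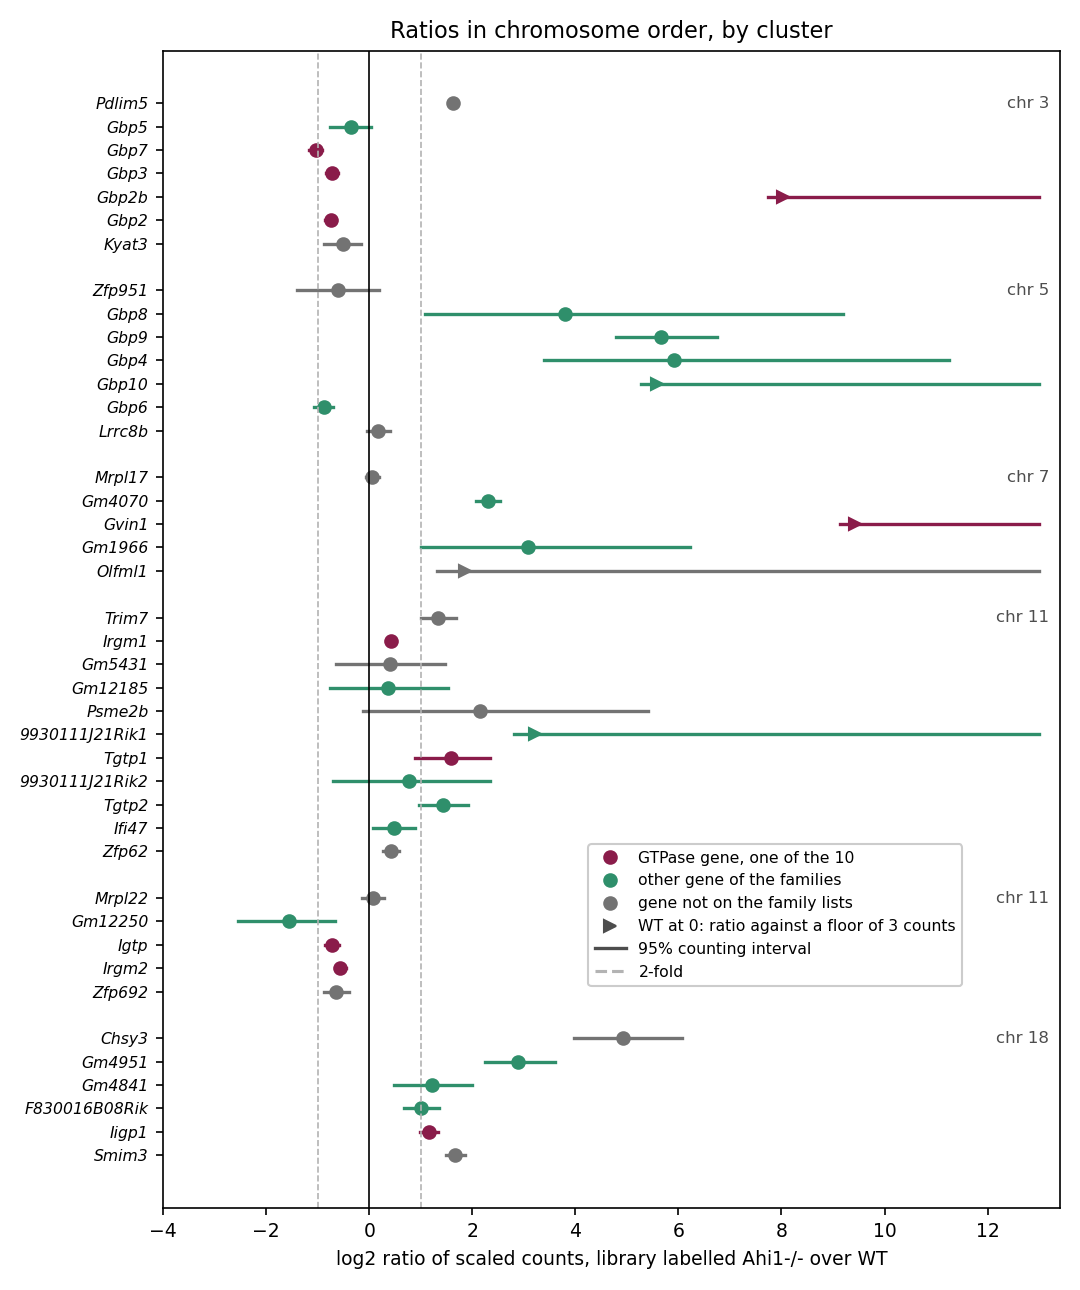
Log2 ratio of scaled counts (library labelled Ahi1-/- over WT) in chromosome order for the 10 GTPase genes (dark red), other genes of their families (green) and genes beside or among them that were on no list, Gm5431 included (grey); bars are 95% counting intervals, triangles mark genes at 0 in WT and dashed lines 2-fold. All 4 family genes of the chromosome 18 cluster lie above 0, and all 3 of the second chromosome 11 cluster below.

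Position on the chromosome was read against the nearest measured genes outside the families. The Gbp cluster of chromosome 3 lies between Pdlim5 (2153 and 6717 counts, 3.09-fold higher) and Kyat3 (160 and 113, 1.43-fold lower). The chromosome 11 cluster of Irgm1 and Tgtp1 lies between Trim7 (98 and 250, 2.53-fold higher) and Zfp62 (567 and 770, 1.35-fold higher), and Ifi47, Tgtp1, Tgtp2 and Irgm1 were all above 0. The cluster of Igtp and Irgm2 on the same chromosome lies between Mrpl22 (378 and 401) and Zfp692 (382 and 248, 1.55-fold lower), and its 3 genes were below 0. On chromosome 18, Chsy3 (9 and 276 counts, 30.4-fold higher) and Smim3 (306 and 981, 3.18-fold higher) flank a cluster that was above 0 throughout. Beside the Gvin cluster of chromosome 7, Mrpl17 had 1081 and 1139 counts and Olfml1 0 and 11. The Gbp cluster of chromosome 5 lies between Zfp951 (36 and 24 counts) and Lrrc8b (302 and 345), neither of them 2-fold apart. The median log2 ratio of the other measured genes was -0.21 on chromosome 3, -0.14 on chromosome 5, 0.23 on chromosome 7, 0.14 on chromosome 11 and 0.04 on chromosome 18. The part of position in the ratios was not tested.

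Upstream of the GTPases, the signalling genes were mostly within 2-fold. Of 20 measured genes for interferon receptors, JAK-STAT proteins and their regulators, 17 reached 50 counts in the higher library. Of these 17, 2 were lower and 0 higher, beside 10.3% lower and 16.0% higher over all genes. The median log2 ratio of the 20 was -0.11. Irf1, a transcription factor that drives GBP genes, had 1417 and 587 counts (2.44-fold lower), and Irf2, its antagonist, 1086 and 544 (2.01-fold lower). Irf2 was inside 2-fold with DESeq2 or upper-quartile scaling and with the authors' TPM, which left 1 lower gene. Genes named after their values were seen are the interferon-gamma receptor chain Ifngr1 (631 and 932 counts) and Irf9 (2303 and 1529), both within 2-fold. Chosen in the same way, the transcripts of interferon-beta (Ifnb1) had 3 and 0 counts, at or under the floor in both libraries, so no difference was detectable at this depth.

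Other interferon response genes had ratios in both directions, with more below 0 than above. Of 27 measured genes of the type I response, 9 were lower and 2 higher in the library labelled Ahi1-/-, beside 10.3% lower and 16.0% higher over all genes. Of the 27, 24 had log2 ratios below 0 and 3 above, and the median was -0.81. Of all 14485 measured genes, 49.3% lay above 0. Cmpk2 was 8.43-fold lower (1520 and 182 counts), Rsad2, an antiviral enzyme, 5.31-fold lower (1568 and 298) and Oasl1 3.82-fold lower (931 and 246), while Trim30a was 56.6-fold higher (23 and 1314). Of 17 measured genes of the interferon-gamma response outside the GTPases, 16 reached the minimum. Of these 16, 6 were lower and 3 higher (the median of the 17 was -0.40). Among the 17, 11 had log2 ratios below 0 and 6 above. The chemokine gene Cxcl9 (6 and 126 counts) was 20.8-fold higher, the complement inhibitor gene Serping1 (85 and 1691) 19.7-fold and the MHC class II gene H2-Ab1 (9 and 153) 16.8-fold, whereas Cd74, the class II chaperone, was 7.33-fold lower (247 and 34). Trim30a, Cxcl9, H2-Ab1 and Cd74 each passed the minimum only through the library where it was high.

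The systems that act with the GTPases on vacuoles were mostly within 2-fold. All 12 genes of the LC3 conjugation system, which directs IRGs and GBPs to vacuoles, were within it, with a median log2 ratio of 0.39. Gabarap had 3991 and 6422 counts (log2 0.67) and Map1lc3b 3129 and 2780 (log2 -0.18). Of 6 genes for CaaX prenylation and processing, which anchor Gbp2 and Gbp2b to membranes, Rce1, the CaaX protease, was lower (1004 and 470 counts, 2.16-fold) and 0 were higher (median -0.32). Of 14 genes for vacuole ubiquitin and inflammasome effectors, 10 reached the minimum. Of these 10, 2 were higher and 1 lower (the median of the 14 was 0.13). The 2 higher genes, Casp4 and Cybb, passed it only through the library where they were high. Over all genes with the minimum, 16.0% were higher and 10.3% lower. Casp4 (caspase-11), which senses bacterial lipopolysaccharide, was 9.37-fold higher (35 and 331 counts), Cybb, a subunit of the phagocyte oxidase, 2.74-fold higher (21 and 58) and Nos2, which makes nitric oxide, 5.71-fold lower (1681 and 297).

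FPKM values, in a table of their own, were given for 3872 genes, 5 of the 10 among them. In the authors' deposited table Gbp2b stood at 0 and 13.8 FPKM, Gvin1 at 0 and 11.8, Iigp1 at 6.65 and 13.8, Tgtp1 at 0.44 and 1.22, and Gbp7 at 15.2 and 6.84. These are the 5 genes past the 2-fold limit. Of all genes listed there, 92.6% were 2-fold or more apart in the scaled counts.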

How the data were processed

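Total RNA (1 ug per library) of 2 MEF cultures was sequenced on DNBSEQ, per the labels' protocols. The authors deposited expected counts per gene for 17260 mRNA genes, of which 65.1% of the WT values and 64.4% of the others were whole as written. The same file gives the authors' TPM, and FPKM for part of the genes come from another deposited file, per the file headers. Build mm8, RSEM 1.2.12, Bowtie2 2.2.5 and HISAT2 2.0.4 are named in the submitters' processing notes, without roles. For annotation, filters and strand use nothing is stated in the sources used here. Columns headed CON and EXP were taken as WT and Ahi1-/-. All 6 value columns were used (0 unused).

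Counts were rounded and scaled over the whole table with TMM (edgeR 4.0.16, R 4.3.3). Ratios carry exact Clopper-Pearson 95% intervals on the share of both counts in 1 library. TPM intervals are exact Poisson intervals of the counts. A library at 0 was set to a floor of 3 counts when the other had more. The calculation was tested on simulated data. Python 3.11.15, numpy 2.4.6, pandas 2.3.3, scipy 1.17.1 and matplotlib 3.10.9 were used.

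Gene lists came from names. A gene was measured with at least 10 counts summed. The text names all 10 genes, every other measured gene of the family list, Ahi1, up to 4 genes with the largest ratios per list (or 2 with the most counts where none was 2-fold apart), and the nearest measured protein-coding neighbours of each cluster with one of the 10. Gm5431 and the chromosome 5 neighbours were added after their values were seen. From marker lists only genes the text needs are named. The members and lists were chosen with earlier results of these data known. Promoters came from RefSeq (GRCm38.p6) and transcripts from GENCODE M21 on the same assembly. This is not the build in the notes, so positions are printed for promoters only. Chromosomes were found for 17206 genes.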

Additional observations from a re-analysis of the deposited data

How the results depend on the processing

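Alternatives covered scaling (DESeq2 1.42.0 size factors, total counts, upper quartile), the authors' TPM, the count minimum (10, 200 or none), the fold limit (1.5 or 4), unrounded counts and a floor of 1 count. Summing near-identical copies was added after seeing the data. Of the family genes' ratios, 5 moved beyond their counting interval, those of Gbp2, Irgm1 and Irgm2 with total counts and those of Gvin1 and Gm4070 with copies summed. The count minimum and the fold limit change calls only. None of the 10 genes changed sign in any setting run. Total-count scaling moved every log2 ratio by -0.11.

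The number of lower genes among the 10 was 1, but 0 with upper-quartile scaling, with TPM and at 4-fold, and 4 at 1.5-fold. The number of higher ones was 4, but 2 at 4-fold and 3 with a minimum of 200 counts, where Tgtp1 lost its call. Among the other family genes the 8 higher became 3 with a minimum of 200 counts, 5 at 4-fold, 9 at 1.5-fold and 11 with a minimum of 10 or none, and the 0 lower became 1 with a minimum of 10, with no minimum and at 1.5-fold. Over the interferon pathway lists together, the 7 higher became 4 with a minimum of 200 counts and 13 at 1.5-fold, and the 19 lower became 33 at 1.5-fold, 4 at 4-fold, 23 with total counts and 17 with upper-quartile scaling or TPM. Shifts with another minimum or fold follow from those limits, and upper-quartile scaling and TPM moved Gbp7 just inside 2-fold. Summing copies took the log2 ratio of Gvin1 from 9.43 to 4.08. No paired analysis was possible because each genotype had 1 library. Depth limits genes near 0, such as Gbp4 and Gbp8 in WT.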
